A study of Mus musculus with 6 samples.

Results

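The genes described here are 8 chemokine receptors that steer T cells to inflamed tissue and to skin, namely Ccr2, Ccr4, Ccr6, Ccr8, Ccr10, Cxcr3, Cxcr4 and Cxcr6. They were chosen by name, as all probe sets to which the array annotation gives exactly 1 gene symbol that is on this list. This gave 8 of 18193 named genes and 12 of the 45101 probe sets on the array, 4 for Ccr2, 2 for Cxcr6 and 1 for each of the others. The signals come from 6 arrays of CD4+ (helper) T lymphocytes from mouse spleen and lymph nodes. The arrays form the groups Control, RA and Ro, with 2 arrays each. RA stands for retinoic acid, a metabolite of vitamin A, as the series title gives it, while Ro is left unexpanded by the labels. The labels give no strain, genotype, age, dose or number of animals for any group, and no treatment beyond the group names except for Control replicate 2. For that array the label describes 5 days of culture with IL-2 (100 U/ml), TGF-b1 (5 ng/ml), IL-6 (20 ng/ml), IL-1b (10 ng/ml), IL-23 (10 ng/ml), IL-21 (10 ng/ml) and TNF-a (20 ng/ml). Antibodies against IL-4 (10 ng/ml) and IFN-gamma (10 ug/ml) were part of the same mixture. The sources used here do not say whether the other 5 arrays share that culture.

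Chemokine receptors are G protein-coupled receptors on the cell surface that read gradients of small secreted proteins, the chemokines, and turn them into directed movement and integrin activation. Helper T cells change the receptors they carry as they differentiate: Cxcr3 and Cxcr6 are typical of the interferon-producing Th1 state, Ccr6 of Th17 cells, Ccr4 and Ccr8 of Th2 and regulatory cells, and Ccr4, Ccr8 and Ccr10 mark cells that travel to skin. Retinoic acid is known for the opposite address, since it imprints T cells with receptors for the gut.

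The samples had clear T cell transcripts on every array. The signals of 9 T cell markers, Cd3e and Cd4 among them, summed to 28960 to 38303 arbitrary units per array, whereas 5 B cell markers summed to 54.6 to 129. The sum hides single markers. Cd4 stood at 463 on Control replicate 2 and at 1141 to 1791 elsewhere, and Cd3e at 1010 against 1701 to 2728. Thy1 was higher on Control replicate 2, at 7555 against 3542 to 4675. Markers of other cells were present in some samples, with sums per array from 164 to 1752 for 8 monocyte and macrophage genes and from 163 to 5961 for 8 mast cell and basophil genes. The 5 NK cell markers summed to 585 to 4690. Klrd1 reached 2060, Nkg7 2532 and Klre1 86.6. Ncr1, the defining receptor of NK cells, stayed at 7.38 to 11.9 and Klra8 at 4.76 or less. The 2 CD8 T cell markers summed to 58.9 to 321 and the 5 dendritic cell markers to 59.7 to 72.3. Cd8a was 236 on Control replicate 2 and 4.29 to 23.2 elsewhere, while Cd8b1 was 85.0 there and 54.6 to 164 elsewhere. Control replicate 2 stood apart from the rest: its log2 signals correlated with those of the other arrays at 0.911 to 0.917, against 0.961 to 0.972 among the other 5. The log2 differences of the 7 tested receptors from Control are therefore given with and without it. Counts, lists and the values of other genes include it. In bulk RNA, fewer cells of a type and less RNA per cell cannot be told apart.

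**Figure D1:**
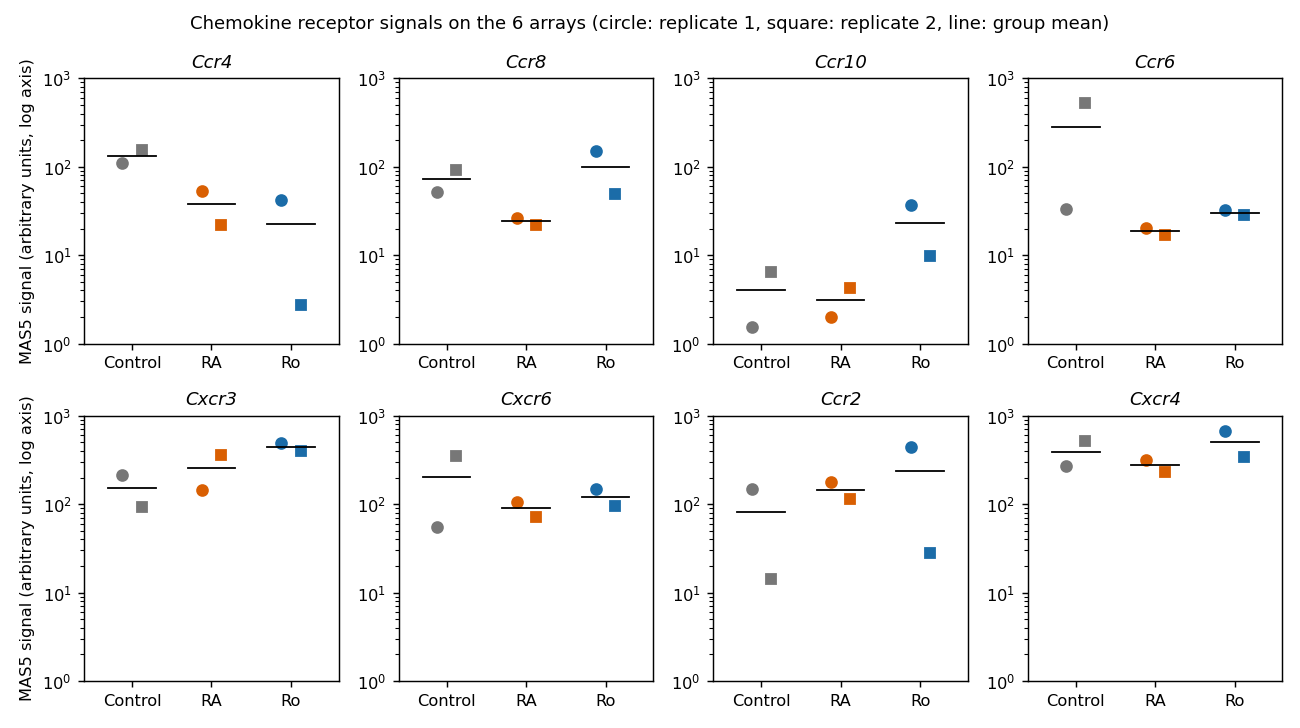
MAS5 signal in arbitrary units on a log axis for each receptor on the 6 arrays, with circles for replicate 1, squares for replicate 2 and lines for group means. The brightest probe set that passed the filter is drawn for Ccr2 and Cxcr6. Ccr6 stands at 534 on Control replicate 2 and at 33 or less elsewhere, and Ccr8 is lowest on the 2 RA arrays.

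Between RA and Ro the question was which of the receptors differ with the retinoid label. Of the 7 receptors tested, Ccr8 and Ccr6 were, with each array centred on its median, lower on both RA arrays than on both Ro arrays. Ccr8 had 24.1 ± 3.29 as the RA mean (SD, n = 2 arrays, as for all means) and 101 ± 72.3 as the Ro mean, a Ro over RA ratio of 4.17. Cxcr3 and Cxcr4 also had lower mean signals in RA. Ccr4 pointed the other way, with a mean of 37.7 ± 22.5 in RA and 22.3 ± 27.7 in Ro. None of these differences passed the test. The test was limma, a linear model over all probe sets of the 6 arrays, on log2(signal + 2.999), two-sided, with Benjamini-Hochberg adjustment over 29507 probe sets and a threshold of 0.05. Of the 8 receptors, 7 passed the filter on dim probe sets and Ccr10 did not. Of these 7 genes 0 were called, against 0% of probe sets in all, and 1 (Ccr8) had an unadjusted p under 0.05, as had 496 probe sets. When limma was fitted to these 4 arrays alone, 0 of 7 were called as well, where 0.043% of probe sets were (12 of 27878). Without Control replicate 1 in the fit the count was 0 of 7 against 0.0415%. With the replicate number as a block in the fits of 4 arrays, 0 of 7 receptors were called for RA minus Ro, 0 for RA minus Control and 1 (Ccr4) for Ro minus Control, against 0.38%, 0.2% and 0.332% of probe sets.

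Log2 differences are given relative to the median probe set of the comparison, since RA lay 0.21 below Ro on the log2 scale over all probe sets (a shift of -0.21), 0.09 above Control, and Ro lay 0.29 above Control. The p-values and SEs are those of the differences as deposited, before that shift was taken off. The intervals put these SEs around the shifted differences, so an interval and its p-value need not match. On this scale 5 of the 7 receptors lay below and 2 above the median probe set, with a median of -0.41 against -0.03 over all genes. Both RA arrays were lower than both Ro arrays for 2 of the 7, Ccr6 and Ccr8, after each array was centred on its median. The same was true of 20.4% of all genes, and 35.3% separated the groups in either direction, so that the count is near the background. In the signals as deposited, with the general shift left in, the count was 4, with Cxcr3 and Cxcr4 added, where 44.4% of all genes separated the groups in either direction. A separation that was also at least 2-fold was met by 1 receptor, Ccr8, and by 4.7% of genes.

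**Figure D2:**
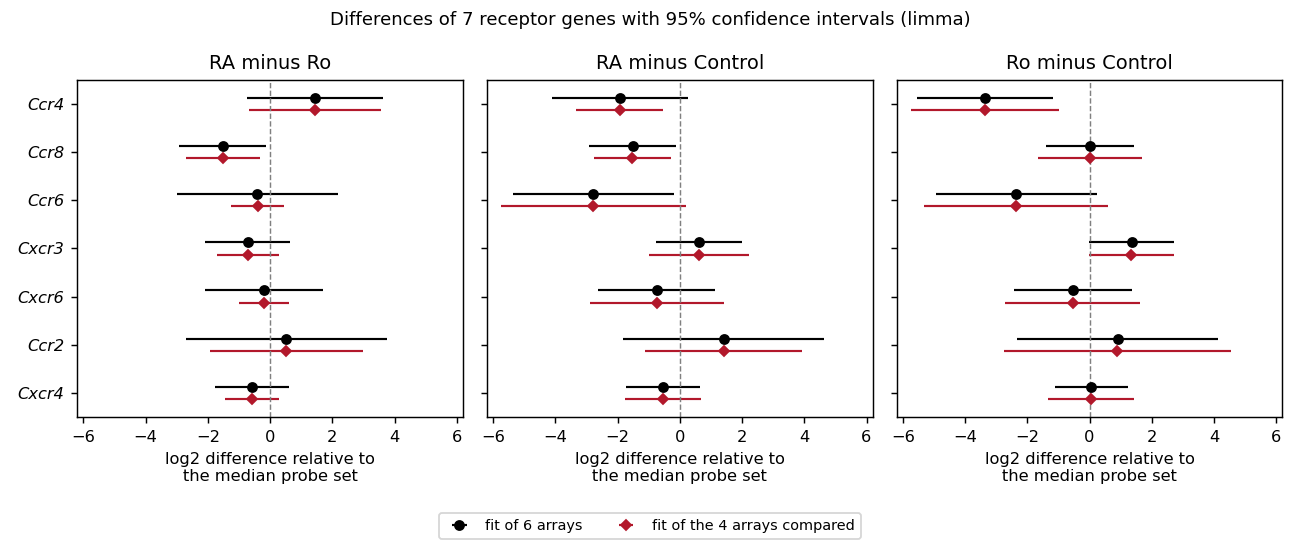
Log2 differences (relative to the median probe set) of the 7 tested receptors in 3 comparisons, with 95% confidence intervals from limma for the fit of 6 arrays (black circles) and for the 4 arrays compared (red diamonds). The intervals put the SE of the signals as deposited around the shifted difference. For RA minus Ro the Ccr8 interval lies below 0, from -2.93 to -0.12 in the fit of 6 arrays, and the intervals of the other 6 receptors cross 0.

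Ccr8, a receptor for Ccl1 that is carried by skin-homing, Th2 and regulatory T cells, gave 26.4 and 21.8 with RA and 152 and 49.5 with Ro. It stood at 52.4 and 93.1 on the Control arrays. Both RA arrays were thus the lowest of the 6, while Ro replicate 1 was the highest and Ro replicate 2 was below both Control arrays. The log2 difference of RA minus Ro was -1.52 (SE 0.60; 95% interval -2.93 to -0.12; limma adjusted p = 0.999). With each array centred on its median before the fit of 6 arrays, the SE was 0.69 and the unadjusted limma p 0.0637. That p is no longer under 0.05, so a 95% interval from the centred fit includes 0. In the centred fit of the 4 arrays the unadjusted limma p was 0.0299 and the adjusted p 0.943. In the 4-array limma fit of the signals as deposited the difference was the same (-1.52, SE 0.51, adjusted p = 0.663). Its size rested on Ro replicate 1: without that array the 4-array difference was -0.66, and without Ro replicate 2 it was -2.34. Such a fit assumes for the lone array the spread of the other group, and 2.06% and 1.59% of all probe sets were called without Ro replicate 1 and without Ro replicate 2.

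Markers of mast cells and basophils were also higher on the Ro arrays than on the RA arrays, with sums of 5961 and 3825 against 1603 and 1369. On the Control arrays they summed to 3914 and 163, while Ccr8 was higher on the second of these. The part of those cells in the Ccr8 signal was not tested. Ccr8 is shown here by its promoter, since its interval for RA minus Ro excluded 0. The window runs from 250 bases before to 50 bases after the start that RefSeq annotates in GRCm38.p6, at chr9:120091883-120092182 on the plus strand, and the capitals mark TTATCT, the reverse complement of AGATAA, the core of GATA factor sites.
Ccr8: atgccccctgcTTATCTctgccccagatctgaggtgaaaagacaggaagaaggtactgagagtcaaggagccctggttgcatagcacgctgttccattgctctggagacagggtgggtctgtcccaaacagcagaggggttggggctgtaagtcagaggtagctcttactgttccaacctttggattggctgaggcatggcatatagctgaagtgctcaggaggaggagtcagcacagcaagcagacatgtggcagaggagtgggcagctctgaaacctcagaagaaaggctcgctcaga

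Ccr10, the receptor for the skin chemokine Ccl27 and the mucosal chemokine Ccl28, was dim on all arrays but Ro replicate 1, where it ranked at the 57.8 percentile. Its signals were 2.00 and 4.23 in RA, 37.0 and 9.76 in Ro and 1.53 and 6.53 in Control. Both Ro arrays were the highest of the 6, but Ro replicate 2 ranked at the 36.8 percentile of its array, under the filter's 40, so that only Ro replicate 1 passed and the gene was not tested. Without the filter its log2 difference was -1.75 (SE 0.68; limma adjusted p = 1.00) for RA minus Ro. At such signals the size of the difference is uncertain.

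Ccr4, the receptor for Ccl17 and Ccl22 on skin-homing, Th2 and regulatory T cells, ran in another order. The Control arrays were brightest, at 111 and 156, followed by RA at 53.6 and 21.8 and Ro at 41.9 and 2.75. RA and Ro overlapped, because Ro replicate 1 lay between the RA arrays. The log2 difference of RA minus Ro was 1.44 (SE 0.93; 95% interval -0.76 to 3.63; limma adjusted p = 0.999). It rested on the dim Ro replicate 2: without that array it was -0.09 in the 4-array fit, and without Ro replicate 1 it was 3.00. Against Control, both RA arrays and both Ro arrays were lower than both Control arrays. The mean Control signal of 133 ± 31.7 was 3.53-fold that of RA and 5.97-fold that of Ro. The log2 differences were -1.93 (SE 0.93) for RA minus Control and -3.35 (SE 0.93) for Ro minus Control, with limma adjusted p = 0.977 and 0.661. Without Control replicate 2 they were -1.41 and -2.87, so the direction was the same with the array that stood apart left out. The sizes moved more with other arrays: Ro minus Control was -1.82 without Ro replicate 2 and -4.90 without Ro replicate 1, and RA minus Control was -1.27 without RA replicate 2 and -2.61 without RA replicate 1.

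Ccr6, which binds Ccl20 and is a hallmark of Th17 cells, was bright on only 1 array. Control replicate 2 had a signal of 534, at the 92.2 percentile of its array, and Control replicate 1 had 33. The RA arrays stood at 20.3 and 16.9 and the Ro arrays at 32.1 and 28.3, so that Control replicate 2 was 16.2-fold above the next array. RA lay below Ro without overlap, by -0.41 on the log2 scale (SE 1.10) with 6 arrays fitted and by -0.40 (SE 0.36) with 4 (limma adjusted p = 0.999 and 0.677). The SE of the first fit contains the gap between the Control arrays. RA minus Control was -2.77 (SE 1.10; limma adjusted p = 0.977) and Ro minus Control was -2.35 (SE 1.10; limma adjusted p = 0.661). Without Control replicate 2 these were -0.54 and -0.17. Without Control replicate 1 they were -5.00 and -4.56, in a fit where 15.1% and 24.9% of all probe sets were called. Each of these fits rests on a single Control array.

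**Figure D3:**
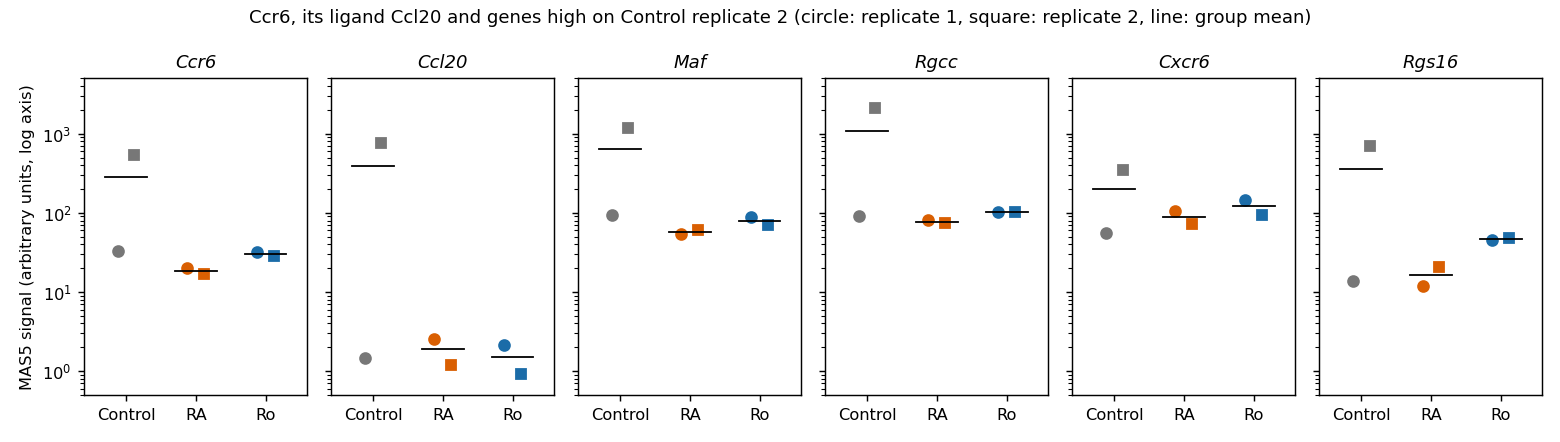
MAS5 signal in arbitrary units on a log axis for Ccr6, its ligand Ccl20, Maf, Rgcc, Cxcr6 and Rgs16 on the 6 arrays, with circles for replicate 1, squares for replicate 2 and lines for group means. The genes beside Ccr6 and Ccl20 were drawn because they were high on Control replicate 2, Maf and Rgcc as the profiles nearest to Ccr6. In all 6 panels Control replicate 2 is the highest array, as it was for 41.5% of all genes on centred arrays. It is at 771 for Ccl20, where the other 5 arrays are at 2.55 or less.

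The ligand of Ccr6 was high on the same array. Ccl20 had a signal of 771 on Control replicate 2, 1.46 on Control replicate 1, 2.55 and 1.21 with RA, and 2.13 and 0.906 with Ro. The genes on the array whose profile lay nearest to that of Ccr6 were Maf, a transcription factor of Th17 and follicular helper cells, and Rgcc, a regulator of the cell cycle. Their root mean square distances from Ccr6 over the 6 arrays, on gene-centred log2 values, were 0.169 and 0.206. Maf had 1175 on Control replicate 2 and 54.1 to 93.9 elsewhere, and Rgcc had 2105 and 74.7 to 104. Rgs16, which shuts off signalling by G protein-coupled receptors, had 698 on that array and 11.9 to 47.8 on the others.

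Cxcr6, the receptor for the membrane-bound chemokine Cxcl16 on Th1 and tissue-resident T cells, shared this array order in part. Its brighter probe set had 349 on Control replicate 2 against 55.4 on the other Control array, 106 and 72.4 with RA, and 147 and 94.4 with Ro. The other probe set had 346 on Control replicate 2 and 32.7 to 74.2 on the other arrays. In both probe sets Control replicate 2 was the highest array and Control replicate 1 the lowest. In the dimmer probe set RA (55.1 and 52.0) lay below Ro (74.2 and 61.6) as deposited, and overlapped with it after each array was centred on its median. In the brighter probe set RA and Ro overlapped on both scales. The log2 difference there was -0.20 (SE 0.80, 95% interval -2.09 to 1.69, limma adjusted p = 0.999), and the 4-array interval was -1.01 to 0.62. RA minus Control was -0.74 (SE 0.80) and Ro minus Control -0.53 (SE 0.80), with limma adjusted p = 0.977 and 0.920. Both turned to 0.83 and 1.00 without Control replicate 2. Without Control replicate 1 they were -2.31 and -2.09, with Control replicate 2, the array that stood apart, as the only Control array.

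NK cell markers, which share transcripts with cytotoxic T cells, were also highest on Control replicate 2, with a sum of 4690 against 585 to 2460 on the other arrays. Klrd1, Nkg7 and Klre1 were highest on that array, at 2060, 2532 and 86.6. Ncr1, at 9.24, and Klra8, at 2.17, were dim there as on the other arrays. The part of NK cells in the Cxcr6 signal was not tested. The promoters of Ccr6 and Cxcr6 are shown because both genes were highest on Control replicate 2. The windows are chr17:8235793-8236092 for Ccr6, the first of 2 annotated starts, and chr9:123806227-123806526 for Cxcr6, both on the plus strand of GRCm38.p6 from RefSeq. Capitals mark TGACCT, the reverse complement of the core AGGTCA bound by retinoid and ROR receptors, which starts at position -44 from the start of Ccr6.
Ccr6: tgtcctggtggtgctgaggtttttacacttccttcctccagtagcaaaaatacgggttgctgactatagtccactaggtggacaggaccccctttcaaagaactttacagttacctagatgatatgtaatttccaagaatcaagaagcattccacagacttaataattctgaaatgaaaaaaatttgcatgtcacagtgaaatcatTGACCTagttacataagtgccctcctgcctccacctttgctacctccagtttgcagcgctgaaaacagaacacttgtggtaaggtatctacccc
Cxcr6: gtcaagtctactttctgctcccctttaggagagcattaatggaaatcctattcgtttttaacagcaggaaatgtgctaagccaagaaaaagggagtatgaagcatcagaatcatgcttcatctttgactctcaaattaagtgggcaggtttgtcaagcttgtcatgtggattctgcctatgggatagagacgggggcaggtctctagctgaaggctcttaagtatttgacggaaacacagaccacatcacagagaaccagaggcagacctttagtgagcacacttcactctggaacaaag

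Promoter windows were found for 7 of the 8 receptors, with 8 windows in all. Each was searched on both strands for 5 motifs. Cores of retinoid receptor sites were searched as AGGTCA, with AGTTCA as the other form. T-box sites were searched as GGTGTG. The core of GATA factor sites was searched as AGATAA. The site of AP-1 was searched as TGANTCA. The first of these, AGGTCA, was found in 1 of the 8 windows, that of Ccr6, and in 16.3% of all 32851 windows of the same length. The letters AGATAA were found in 3, those of Ccr2, Ccr6 (at its other start) and Ccr8, against 11.2% of all windows. The AP-1 letters TGANTCA were found in 1, that of Ccr4, against 7.81%. The form AGTTCA was in 0 of the 8 and in 14.0% of all windows. The T-box letters GGTGTG were likewise in 0 of the 8, and in 19.0% of all. No matches overlapped in these windows, and a match is a run of letters, not a measured site.

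Cxcr3, the receptor for the interferon-induced chemokines Cxcl9, Cxcl10 and Cxcl11 and a mark of Th1 cells, was measured well on all arrays. Its signals were 146 and 365 in RA, 489 and 402 in Ro and 213 and 92.7 in Control. The Ro arrays were the highest of the 6, and Control replicate 2 was the lowest. RA overlapped with Control and, after each array was centred on its median, with Ro. The log2 difference of RA minus Ro was -0.72 (SE 0.58; 95% interval -2.09 to 0.65; limma adjusted p = 0.999). It depended on RA replicate 1, without which it was -0.13. Ro minus Control was the larger one, at 1.35 (SE 0.58; 95% interval -0.02 to 2.72; limma adjusted p = 0.661), with a 2.92-fold higher mean signal in Ro. RA minus Control was 0.62 (SE 0.58; limma adjusted p = 0.977), and 0.32 without Control replicate 2. Ro minus Control was 1.00 without Control replicate 2 and 1.68 without Control replicate 1. Each of these fits rests on a single Control array.

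Tbx21, the transcription factor that drives Th1 differentiation and Cxcr3, had signals of 36.8 and 185 in RA, 223 and 299 in Ro and 110 and 143 in Control. RA replicate 1 was the lowest array for Tbx21 and the lower of the RA arrays for Cxcr3. The log2 difference of Tbx21 was -1.38 (SE 0.71; limma adjusted p = 0.999) for RA minus Ro. Cxcl10, a Cxcr3 ligand induced by interferon, had 1.94 and 19.9 in RA and 49.9 and 37.0 in Ro, so that RA minus Ro was -1.90 on the log2 scale (SE 0.75; limma adjusted p = 0.999).

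Ccr2, the receptor for Ccl2 on monocytes and on effector and memory T cells, varied more within groups than between them. The brightest of its 4 probe sets had 180 and 113 in RA, 445 and 27.8 in Ro and 150 and 14.3 in Control. Ro replicate 1 was thus 16-fold above Ro replicate 2, and Control replicate 1 was 10.5-fold above Control replicate 2. The mean signal was lower in RA than in Ro (146 ± 47.2 against 237 ± 295), while the log2 difference was positive, at 0.52 (SE 1.37; 95% interval -2.71 to 3.75; limma adjusted p = 0.999). In the 4-array limma fit it was 2.54 without Ro replicate 1 and -1.45 without Ro replicate 2, so that the sign followed the Ro array that was kept. RA minus Control was 1.41 (SE 1.37) and Ro minus Control 0.90 (SE 1.37), and without Control replicate 2 they were 0.12 and -0.43. The other probe sets had narrower ranges, of 9.73 to 143, 21.2 to 88.2 and 21.8 to 66.3. Only the last of them separated RA from Ro, with 21.8 and 37.1 against 66.3 and 49.5 and a log2 difference of -0.72 (SE 0.44; limma adjusted p = 0.999).

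The profiles nearest to that of Ccr2 on the array were those of Ska1, a component of the kinetochore, and Hrob, a DNA repair gene, at distances of 0.427 and 0.462. Ska1 had 604 and 328 in RA, 719 and 106 in Ro and 277 and 35.2 in Control. Monocyte and macrophage markers summed to 504 and 480 in RA, 1236 and 446 in Ro and 1752 and 164 in Control, and the higher array of Ro and of Control was the same as for Ccr2. The part of monocytes in the Ccr2 signal was not tested.

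Cxcr4, the receptor for Cxcl12 that holds lymphocytes in bone marrow and lymphoid tissue, was measured on every array. Signals were 319 and 233 in RA, 664 and 338 in Ro and 267 and 520 in Control. In the signals as deposited RA lay below Ro without overlap, by a small gap between 319 and 338. The log2 difference was -0.58 (SE 0.50; 95% interval -1.76 to 0.60; limma adjusted p = 0.999). It was -0.01 in the 4-array fit without Ro replicate 1 and -1.10 without Ro replicate 2. Against Control the groups overlapped, with log2 differences of -0.53 (SE 0.50) for RA and 0.06 (SE 0.50) for Ro. Without Control replicate 2 these were 0.23 and 0.77.

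**Figure D4:**
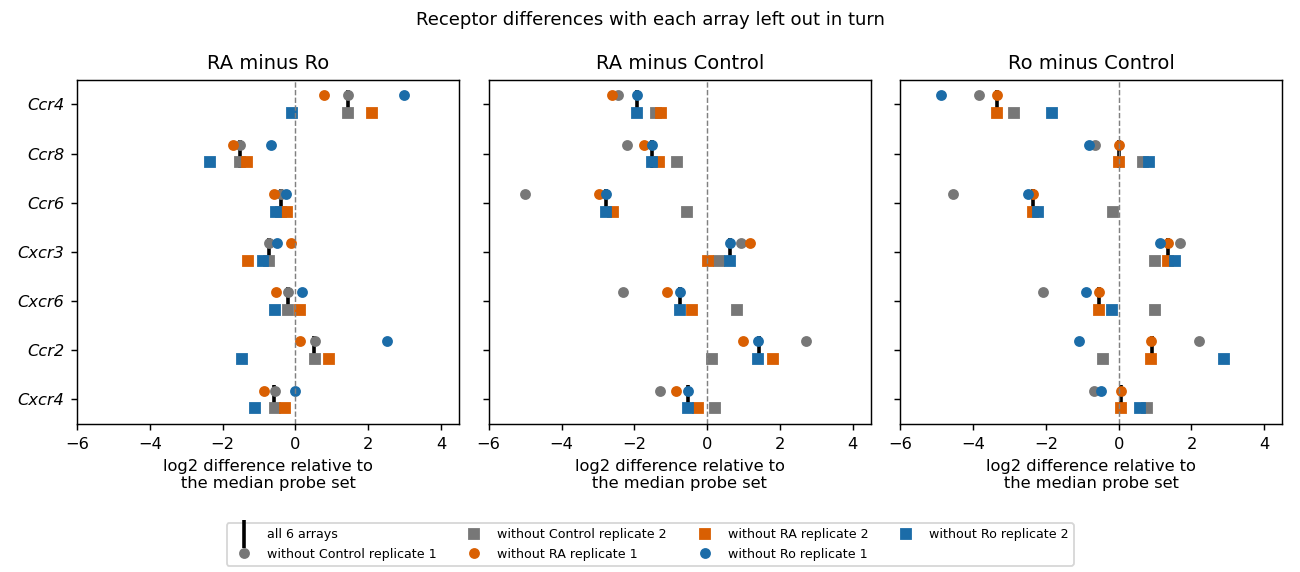
Log2 differences (relative to the median probe set) of the 7 receptors in limma fits with each array left out in turn, coloured by the group of the array left out (circle: replicate 1, square: replicate 2), with a black bar for all 6 arrays. For RA minus Ro the Ro arrays move Ccr2 from -1.46 to 2.53, and for RA minus Control the Control arrays move Ccr6 from -5.00 to -0.54.

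The comparisons with Control set RA and Ro against the Control arrays. All 3 comparisons share arrays, so their values are given side by side. For RA minus Control 0 of 7 genes were called by limma, against 0% of probe sets, and 2 had an unadjusted p under 0.05, Ccr6 and Ccr8, as had 535 of the 29507 probe sets. Of the 7 receptors 5 lay below the median probe set, with a median of -0.74 against 0.02 over all genes. Ccr4, Ccr6 and Ccr8 were lower on both RA arrays than on both Control arrays, 3 of 7 where 10.4% of all genes were and 29.4% separated in either direction (26.8% as deposited, again 3 receptors). All 3 were also at least 2-fold apart, as were 6.55% of genes. Ccr8 differed by -1.52 (SE 0.60; limma adjusted p = 0.977) and by -0.84 without Control replicate 2. For Ro minus Control the Ccr8 difference was 0.02 (SE 0.60), and 0.65 without that array. With each array centred on its median neither Ccr6 nor Ccr8 had an unadjusted limma p under 0.05. For Ro minus Control 0 of 7 were called as well, against 0% of probe sets, and 2 had an unadjusted p under 0.05, Ccr4 and Cxcr3, as had 1201 of the 29507 probe sets. With centred arrays these 2 kept an unadjusted limma p under 0.05, at 0.0125 and 0.021, with limma adjusted p = 0.695 each. Of the 7, 4 lay above and 3 below the median probe set, with a median of 0.02 against 0.03 over all genes. The groups separated for 2 of 7, Ccr4 (lower in Ro, as were 12.3% of genes) and Cxcr3 (higher in Ro, as were 22.8%), where 35.1% of genes did so in either direction. Both were at least 2-fold apart, as were 7.9% of genes. As deposited, Ccr6 also lay lower in Ro, which made 3 of 7 against 39.4% of genes.

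The order of the mean signals of the groups differed between the receptors. Ro was the brightest group for Ccr8, Ccr10, Cxcr3 and Cxcr4, and Control for Ccr4, Ccr6 and Cxcr6. For Ccr2 the order depended on the scale: its mean signal was highest in Ro, through Ro replicate 1, while its mean log2 value was highest in RA. RA was the dimmest group for Ccr6, Ccr8, Ccr10, Cxcr4 and Cxcr6. On arrays centred on their medians, neighbours in these orders overlapped except RA and Ro for Ccr6 and RA and Control for Ccr4 and Ccr8. These differences too did not pass the test.

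The ligands of the receptors were mostly dim in these T cells. Of 15 on the array, 10 passed the filter, and 0 were called between RA and Ro, against 0% of probe sets. Of the 10, 5 lay above and 5 below the median probe set (median -0.16). Ccl22 and Ccl17, the ligands of Ccr4, were present in all groups but varied between replicates: Ccl22 had 130 and 320 in RA, 180 and 554 in Ro and 299 and 4.86 in Control. Ccl17 had 32.5 and 63.4 in RA, 30.1 and 81.9 in Ro and 36.4 and 0.792 in Control. Both were lowest on Control replicate 2, where Ccr4 was highest. Ccl1, the ligand of Ccr8, had 7.33 and 19.7 in RA and 23.2 and 26.4 in Ro. Ccl2, a ligand of Ccr2, had 9.98 and 10.2 in RA and 44.7 and 20.5 in Ro, and Ccl8 had 16.8 and 18.4 against 7.99 and 14.9. Cxcl16, the ligand of Cxcr6, stood at 21.7 and 37.6 in RA and 18 and 24.6 in Ro.

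Of 9 other tested chemokine receptors 3 lay above the median probe set. By limma 0 were called with 6 arrays and 1 with only the 4 compared, against 0% and 0.043% of probe sets. That 1 was Ccr9, the receptor for the small intestine, with 509 and 398 in RA against 5.76 and 8.93 in Ro and a log2 difference of 5.69 (SE 0.32; limma adjusted p = 0.00474) in the 4-array fit. In the same fit the differences of Ccr8 and Ccr4 were -1.52 and 1.44. Ccr7, which brings T cells into lymph nodes, had 2400 and 2847 in RA, 4315 and 4588 in Ro, and 3457 and 3144 in Control, lower in RA than on every other array. Its log2 difference of RA minus Ro was -0.55 (SE 0.22; limma adjusted p = 0.999). Cx3cr1, the fractalkine receptor, had 4.91 and 9.54 in RA against 18.2 and 26.2 in Ro, and Ccr1, a receptor of inflammatory chemokines, 61.4 and 36.1 against 145 and 57.3.

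Skin homing also needs carbohydrate ligands for the selectins, which Fut7, Fut4 and Gcnt1 help to build. All 7 tested genes of selectin ligand synthesis lay below the median probe set for RA minus Ro (median -0.51, against -0.03 over all genes). Of these 0 were called, against 0% of probe sets. Selplg, at -0.01, and St3gal4, at -0.08, hardly differed from it. Fut7, the fucosyltransferase that completes these ligands, had 39.5 and 35.6 in RA, 176 and 53.1 in Ro and 62.1 and 204 in Control. Gcnt1, which builds the branched glycan core, had 17.8 and 18.6 in RA, 88.9 and 31.8 in Ro and 39.99 and 73.9 in Control, and Fut4 had 8.80 and 9.28 against 35.9 and 18.9 in Ro. For these 3 genes, as for Ccr8, both RA arrays were the lowest of the 6 and Ro replicate 1 lay above Ro replicate 2. Their log2 differences were -1.10 (SE 0.72), -1.20 (SE 0.58) and -1.06 (SE 0.53), with limma adjusted p = 0.999 each.

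**Figure D5:**
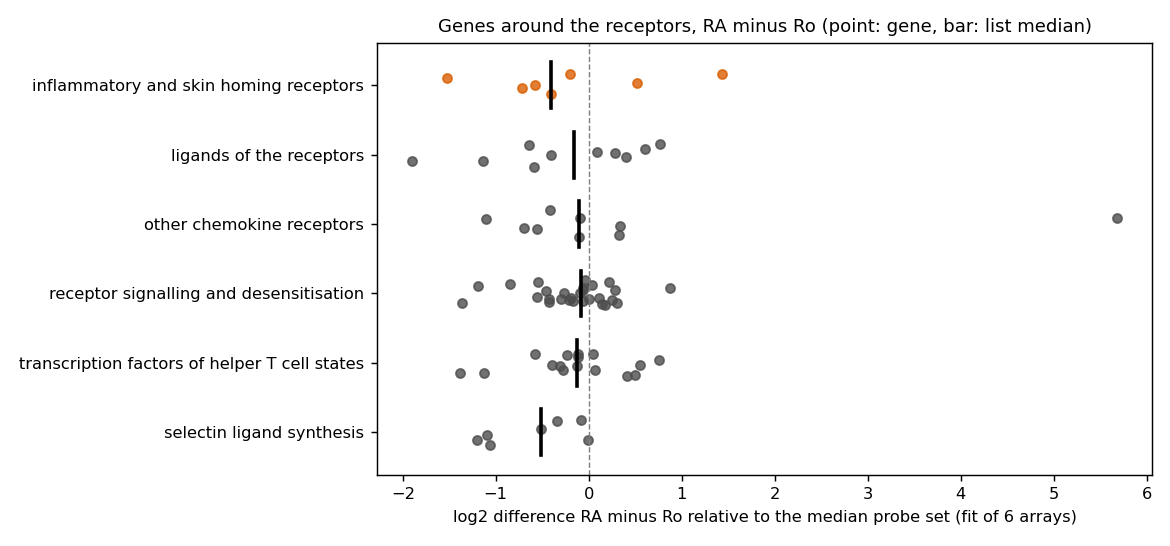
Log2 differences of RA minus Ro relative to the median probe set in the fit of 6 arrays, 1 point for each tested gene and a black bar for the median of each list. The 7 receptors (orange, median -0.41) spread on both sides of 0, and Ccr9 stands at 5.68. The 7 selectin ligand genes lie below 0 (median -0.51), with Selplg at -0.01.

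Signalling parts downstream of the receptors lay close to the median probe set. Of 28 tested genes 10 were above and 18 below it (median -0.08), and 0 were called, against 0% of probe sets. Rgs18 and Rgs16, which limit G protein signals, had 16.5 and 29.1 and 11.9 and 20.7 in RA, against 55.2 and 92.9 and 45.9 and 47.8 in Ro. Plcb3, a phospholipase C that the receptors activate, overlapped (28.2 and 20.5 against 5.22 and 32.9). Of 16 tested transcription factors of helper T cell states, 6 were above and 10 below (median -0.12), with 0 called, against 0% of probe sets. Runx3, which acts with Tbx21 in Th1 cells, had 336 and 409 in RA, 913 and 972 in Ro and 518 and 814 in Control, a log2 difference of -1.12 (SE 0.36; limma adjusted p = 0.999) for RA minus Ro. Gata3, the Th2 factor, had 780 and 789 in RA, 938 and 1043 in Ro, and 953 and 84.4 in Control. Foxp3, the regulatory T cell factor, had 44.3 and 40.1 in RA, 36.7 and 21.3 in Ro, and 40.3 and 154 in Control, with its highest signal on Control replicate 2.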

How the data were processed

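Signals of 45101 probe sets on 6 arrays were used, 2 for each of Control, RA and Ro (Ro and RO in the titles were taken as 1 group). The deposited values are linear intensity values, for which the submitters' processing notes name MAS5, and array medians ran from 16.3 to 23.8. No version, scaling target or detection call was used here, and low MAS5 signals vary strongly. No label names separate cultures or animals for replicates, so the p-values cover the spread between arrays, which may be only technical.

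Genes were named from the platform annotation. Left out were 64 control probe sets, and 932 probe sets with several symbols stayed unnamed. Probe sets above the 40th percentile of their array on at least 2 of 6 arrays were tested (29507 probe sets, 12986 genes), and a gene was represented by its brightest, avoiding cross-hybridising ones. Testing used limma 3.58.1 in R 4.3.3 (lmFit, eBayes with trend, 3 residual degrees of freedom) on log2(signal + 2.999), whose pseudocount, the 20th percentile of the deposited intensity values, shrinks differences of dim genes. The fit was tested on simulated data. Fits of 4 arrays applied the filter to those arrays.

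Named were the receptors, up to 3 genes of each surrounding list with the largest RA minus Ro difference, a few fixed genes, and the 2 nearest profiles of the 3 receptors with the widest range. Receptors, lists and tests were chosen with earlier results of these data known. Alternatives covered the pseudocount, filter, normalization, trend, replicate block, gene means, arrays fitted and a 2-fold criterion. Array centring and 4-array fits without 1 array were added after seeing the data.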

Additional observations from a re-analysis of the deposited data

How the results depend on the processing

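The direction and the absence of a call were the same under most settings, and 2 arrays a group limit every value. Receptor genes called were 0 under limma with all 6 arrays and under each pseudocount, filter, trend, gene mean and normalization setting tried. Under the 2-fold criterion without overlap they were 1 (RA minus Ro), 3 (RA minus Control) and 2 (Ro minus Control) of 7. Of all tested genes 4.7%, 6.55% and 7.9% met it, as did 1256, 1864 and 2617 of the 29507 probe sets. The counts below are of receptor genes, 7 in all, and of probe sets, so they cannot be compared as counts. Shares of probe sets called are given above for the fits without Control replicate 1, Ro replicate 1 or Ro replicate 2. Leaving out 1 array gave 0 to 0, 0 to 2 and 0 to 3 receptor genes called, and 0 to 12, 0 to 4372 and 0 to 7211 probe sets, with the highest counts without Control replicate 1 (12 also without Control replicate 2). In the 4-array fits of RA and Ro, 12 probe sets were called, 10 with centred arrays, 9 after quantile normalization, and 551 and 425 without Ro replicate 1 or 2, with 2 and 3 receptor genes.

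The replicate numbers were not taken to pair the arrays: deviations correlated at 0.249 between RA and Ro, 0.005 between Control and RA and -0.029 between Control and Ro. With the replicate block in the fit of the 4 arrays compared, 106, 56 and 93 probe sets were called for RA minus Ro, RA minus Control and Ro minus Control, and 1 receptor gene in the last, Ccr4 (-3.36, limma adjusted p = 0.0374, where adjusted p ran from 0.0374 to 0.999 over the settings).

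Signs turned for Ro minus Control of Ccr8 and Cxcr4, at -0.0879 and -0.0495 with the filter at the 60th percentile, -0.0387 and -0.0803 after quantile normalization, and -0.0401 and -0.083 in the quantile-normalized 4-array fit. In the 4-array fits of RA minus Ro signs turned for Ccr2 (-1.45) and Ccr4 (-0.0871) without Ro replicate 2, and for Cxcr6 without RA replicate 2 (0.14) or Ro replicate 1 (0.20). With 1 of the 6 arrays left out, RA minus Ro ranged from -1.46 to 2.53 for Ccr2, -0.0948 to 2.99 for Ccr4 and -0.55 to 0.19 for Cxcr6. RA minus Control ranged from -1.28 to 0.23 for Cxcr4 and -2.31 to 0.83 for Cxcr6. Ro minus Control ranged from -1.09 to 2.88 for Ccr2, -0.82 to 0.84 for Ccr8, -0.68 to 0.77 for Cxcr4 and -2.09 to 1.00 for Cxcr6. The cause was not tested. Ccr6 did not pass the filter at the 60th percentile and has no value there.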

Other observations

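The gaps between replicates of a group were larger at the median receptor than at the median gene, which is a description with no test. On log2 values of arrays centred on their medians, the replicates of Control differed by more than 1 for 6 of the 7 tested receptors (all but Cxcr3), where 31.8% of all genes did. The replicates of Ro did so for 4 of 7 (Ccr2, Ccr4, Ccr8 and Cxcr4), against 13.9% of genes. Those of RA did so for 2 of 7 (Ccr4 and Cxcr3), against 7.36%. The median gap of the receptors was 1.68, 1.10 and 0.67 in Control, Ro and RA, and that of all genes 0.66, 0.34 and 0.29.

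On the same centred values, Ro replicate 1 was the highest array for 3 of 7 receptors (Ccr2, Ccr8 and Cxcr3), where it was for 17.5% of all genes. Control replicate 2 was the highest on that scale for 4 of 7 (Ccr4, Ccr6, Cxcr4 and Cxcr6, of which Cxcr4 was highest on Ro replicate 1 in the signals as deposited) and the lowest for 2 (Ccr2 and Cxcr3), where 41.5% and 27.3% of all genes had it as the highest and the lowest. The genes with profiles nearest to Ccr4 were Gpld1 and Dyrk3, at distances of 0.705 and 0.796, farther than those found for Ccr2 and Ccr6. Ccr2, Ccr4, Ccr8 and Cxcr6 lie on chromosome 9 in RefSeq, and they had their highest centred values on different arrays, Ccr2 and Ccr8 on Ro replicate 1 and Ccr4 and Cxcr6 on Control replicate 2.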
